A study of Mus musculus with 12 samples.

Results

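In the whole neural retina of the mouse, 50 probe sets of 46 genes differed at least 4-fold between the B6 and 129 strains, in the same direction, in every state measured. They were chosen by that difference from 34945 probe sets with 1 gene symbol (18193 genes) among the 45037 non-control probe sets of the array: the mean log2 intensity of 129 minus that of B6 had to be 2 or more in size, with 1 sign, in normal retinas, in retinal explants after 3 days in vitro (3DIV) and in explants kept with the GSK3 inhibitor CHIR99021. The strain differences of these 50 are therefore given as a description, without a test. A probe set is a group of short probes whose signals are summarised as 1 value, and many genes have several. Of the 50, 36 (33 genes) were lower in 129 and 14 (13 genes) were higher in 129.

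The retinas came from mice 10 weeks old of C57BL/6NCrSlc (B6) or 129X1/SvJJmsSlc (129), males according to the methods of the study. Each strain had normal retinas, explants kept for 3 days with vehicle (DMSO according to the methods) and explants kept for 3 days with chir99021, at 15 µM in the labels and with a higher dose also named in the methods, and the methods also name EdU in the explant medium. Each of the 6 groups had 2 arrays, called biological replicates in the labels, and the methods name 2 retinas for each condition without saying whether they came from 1 animal, so the errors measure the spread between these samples. The median intensity of the 12 arrays lay between 68.8 and 70.7, and replicates correlated at a Pearson r between 0.997 and 0.998 over probe sets.

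One array stood apart from the rest: the summed intensity of 14 lens genes was 31297 on replicate 2 of normal 129 retina, 1415 on replicate 1, and between 490 and 1003 on the other 10 arrays. No member was on the lens list. Without that replicate the choice gave 49 probe sets, 48 of them among the 50. Rod markers marked the tissue as retina, with sums between 176560 and 187460 on normal arrays. As the mean of the 3 states, the 17 microglial markers were lower in 129 in 15 cases (median -0.74 on the log2 scale). In the same mean, the 43 genes of mitosis and DNA replication were higher in 129 in 30 cases and lower in 5 (median 0.39). The summed intensity of these 43, which include the member Pttg1, is weighted to bright genes and varied with the state. It was 6825 and 6928 in 129 against 12602 and 13575 in B6 in normal retinas, and 12161 and 12371 against 13349 and 13614 in vehicle explants. With CHIR99021 it was 15961 and 19136 in 129 against 11946 and 12743 in B6. In whole tissue, fewer cells of a type and less RNA for each cell cannot be told apart, and the part of cell composition in the strain differences was not tested.

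As background, inbred strains differ at many bases and in gene copies, and such differences can alter how much RNA a gene makes, which exons or ends that RNA carries, or whether its copy is present at all. A 3′ expression array reads RNA through short oligonucleotides designed from a reference, mostly of B6 sequence, and a base that differs under a probe weakens its signal although the RNA may be present. Several probe sets on 1 gene can lie at different places in its transcripts or overlap. A difference in the amount of the whole RNA should be seen by all that are bright enough. A base difference, an alternative exon or an alternative end can be seen by some or, where probe sets overlap, by several or all. At a single probe set these possibilities cannot be told apart, and the probe sequences were not analysed here.

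The members spanned many cellular roles. Those lower in 129 included Lztfl1, a regulator of protein traffic into cilia, Dzip1, a protein of the base of the cilium, Rps9, a protein of the small ribosomal subunit, Uqcr10, a subunit of respiratory complex III, Prdx2, a peroxidase, Slc25a37, the iron importer of mitochondria, Galc, a lysosomal enzyme that degrades galactolipids, Lman1, a cargo receptor between the endoplasmic reticulum and the Golgi, Grik1, a kainate-type glutamate receptor subunit used by OFF bipolar cells, and Pttg1, the securin that holds back chromatid separation. Those higher in 129 included Mtrex, the RNA helicase of the nuclear exosome, Mapk8, the kinase JNK1, Lats1, a kinase of the Hippo pathway, Paip1, a partner of the poly(A)-binding protein, Bloc1s6, a subunit of a complex that builds lysosome-related organelles, Sox30, a transcription factor of spermatogenesis, and Xaf1, an interferon-induced protein linked to apoptosis. Of the lists, Grik1 was the only member on that of bipolar cells. Lztfl1 was the only one on that of retinal degeneration and ciliopathy genes, and none was on those of rods, microglia or coat colour. The list of coat colour is not complete and leaves out Bloc1s6.

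The smallest of the 3 differences of a member, as a fold, ran from 4.003 to 29.6 with a median of 5.37. The 3 differences lay within 1 log2 unit of each other in 43 members and farther apart in 7, with a median spread of 0.58. Their size was largest in normal retinas for 24 members, in vehicle explants for 20 and with CHIR99021 for 6. The 6 arrays of 1 strain lay above the 6 of the other in all 50, which the choice makes nearly certain, with a smallest gap of 0.59. The SD between replicates, pooled over the 6 groups, had a median of 0.15 and reached 0.51 in Cldn34c1, a claudin gene. The strain with the lower signal was on average under the array median in 33 members, and the strain with the higher signal was above it in 46.

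**Figure D1:**
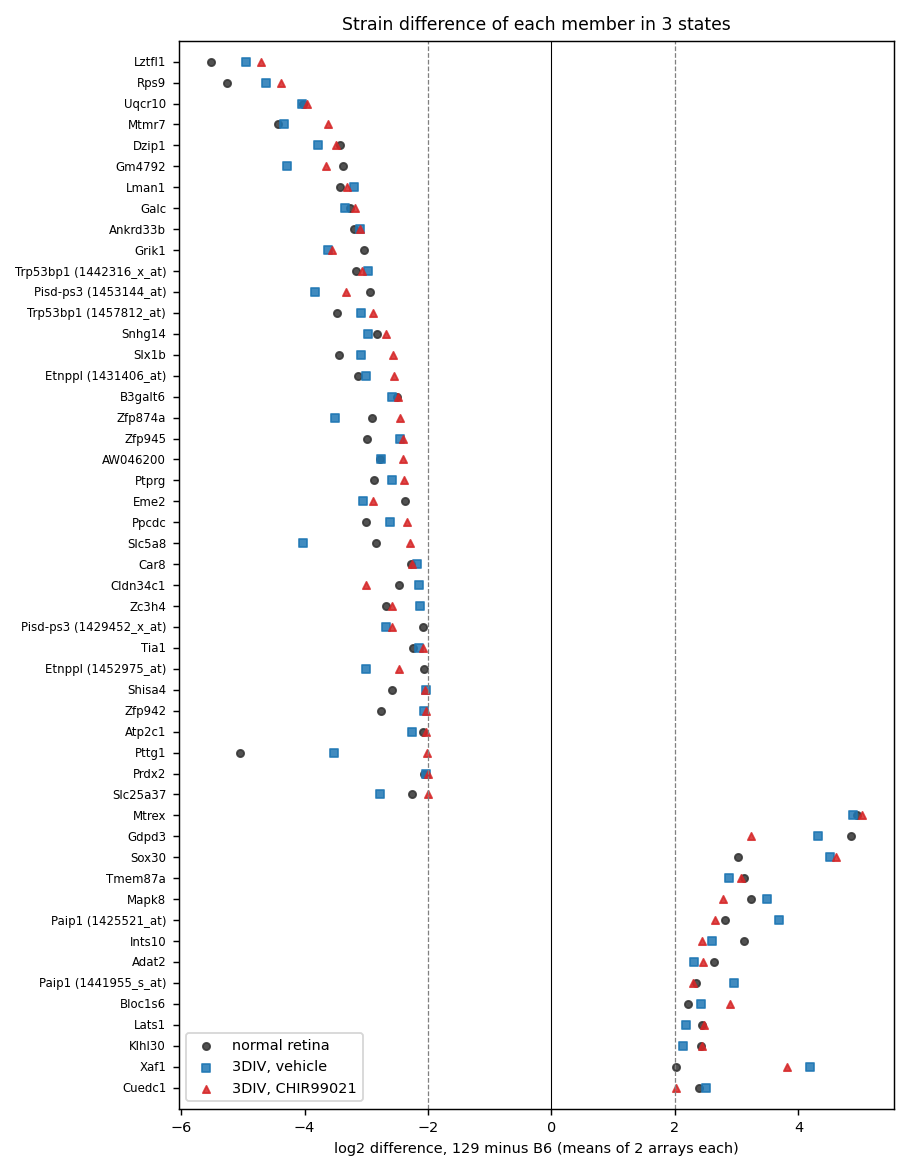
Each line is a member and each point its log2 difference, 129 minus B6, between means of 2 arrays, in normal retina (circles), 3DIV explants with vehicle (squares) and explants with CHIR99021 (triangles), with the limit of 2 dashed. The 36 members to the left and the 14 to the right stay past the limit in all states, and Pttg1 spreads most, from -5.04 to -2.02.

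Where only a gene is named below, the readings are those of its member probe set. The member with the largest mean difference was probe set 1435514_at of Lztfl1. It read 527 and 526 in normal B6 retinas against 12.0 and 11.2 in normal 129 retinas, 299 and 341 against 13.5 and 7.84 in vehicle explants, and 224 and 239 against 8.55 and 9.10 with CHIR99021. The 129 arrays lay far below those of B6 in every state, with log2 differences of -5.51, -4.95 and -4.71. Probe set 1434624_x_at of Rps9 read 4030 and 4319 in normal B6 retinas against 98.7 and 121 in 129, 5420 and 5165 against 233 and 197 in vehicle explants, and 6954 and 6640 against 378 and 282 with CHIR99021. Both strains read higher in explants than in normal retina in Rps9, and the difference stayed at -5.25, -4.63 and -4.38.

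On the other side, probe set 1447517_at of Mtrex read 9.27 and 10.8 in normal B6 retinas against 308 and 310 in 129, 12.3 and 10.4 against 326 and 343 in vehicle explants, and 10.8 and 9.11 against 338 and 309 with CHIR99021. The differences, 4.95, 4.89 and 5.03, were nearly equal, and the mean change with culture was 0.14 (adjusted p = 0.18). Gdpd3, a lysophospholipase D, read between 29.9 and 54.3 on the B6 arrays and between 393 and 1179 on the 129 arrays, with differences of 4.85, 4.32 and 3.24. Sox30 read between 12.5 and 19.8 in B6 and between 106 and 405 in 129. The values of 129 lay well above those of B6 at the members of all 3 genes. Tmem87a, a Golgi membrane protein, read between 85.9 and 131 in B6 and between 824 and 1010 in 129. Ints10, an Integrator subunit, read between 13.7 and 19.9 in B6 and between 75.8 and 132 in 129. The other probe sets of Ints10 differed by only 0.19 and 0.23.

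Other members with large differences, lower in 129, were Mtmr7, a myotubularin-related phosphatase, between 569 and 827 in B6 and between 26.4 and 61.9 in 129, and Dzip1, between 117 and 170 in B6 and between 11.0 and 12.8 in 129. Gm4792, a predicted gene, read between 1260 and 2208 in B6 and between 98.2 and 132 in 129. Every 129 array lay below every B6 array at these probe sets. The other probe set of Mtmr7 differed by only -0.40. Galc read between 136 and 218 in B6 and between 10.9 and 27.7 in 129, and Ankrd33b, an ankyrin repeat protein, between 651 and 2564 in B6 and between 85.2 and 256 in 129. Both strains of Ankrd33b were highest in normal retina.

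Car8, a carbonic anhydrase-related protein without enzyme activity, read between 333 and 433 in B6 and between 63.7 and 89.7 in 129, and Ptprg, a receptor tyrosine phosphatase, between 133 and 292 in B6 and between 31.2 and 39.0 in 129. Atp2c1, the calcium pump of the Golgi, read between 46.0 and 53.8 in B6 and between 9.98 and 12.4 in 129. Slc25a37 read between 359 and 822 in B6 and between 72.8 and 176 in 129, and both strains were higher in the explants than in normal retina. Among the members higher in 129, Mapk8 read between 71.4 and 108 in B6 and between 677 and 929 in 129. Lats1 read between 9.47 and 13.4 in B6 and between 53.9 and 73.4 in 129. Bloc1s6 read between 20.1 and 25.9 in B6 and between 103 and 166 in 129. The 3 differences of Car8, from -2.28 to -2.18, and of Lats1, from 2.19 to 2.46, hardly varied with the state. Other probe sets of these genes differed less, by 0.09 in Lats1, by -0.13 and -0.60 in Car8, and by -0.01 and 0.47 in Bloc1s6. Those of Atp2c1 lay between -0.50 and 0.43, those of Ptprg between -0.35 and -0.28 and those of Mapk8 between -0.77 and 0.26.

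Zinc finger genes of the Zfp series made up 3 of the 50 members (6%), beside 1.78% of probe sets with 1 symbol, and solute carriers 2 (4%) beside 1.88%. The members Zfp874a, Zfp945 and Zfp942 were all lower in 129, with smallest sizes of 2.46, 2.41 and 2.04. Snhg14, a long noncoding RNA that hosts snoRNAs in an imprinted region, read between 875 and 1241 in B6 and between 134 and 170 in 129. Eme2, a partner of a nuclease that cuts branched DNA, read between 59.8 and 117 in B6 and between 10.9 and 13.2 in 129. The other probe sets differed by -0.35 and -0.004 in Snhg14 and by -0.14 and 0.05 in Eme2. Tia1, an RNA-binding protein of stress granules, read between 437 and 756 in B6 and between 107 and 165 in 129, and Adat2, a deaminase that edits tRNA, between 30.0 and 82.4 in B6 and between 229 and 435 in 129.

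**Figure D2:**
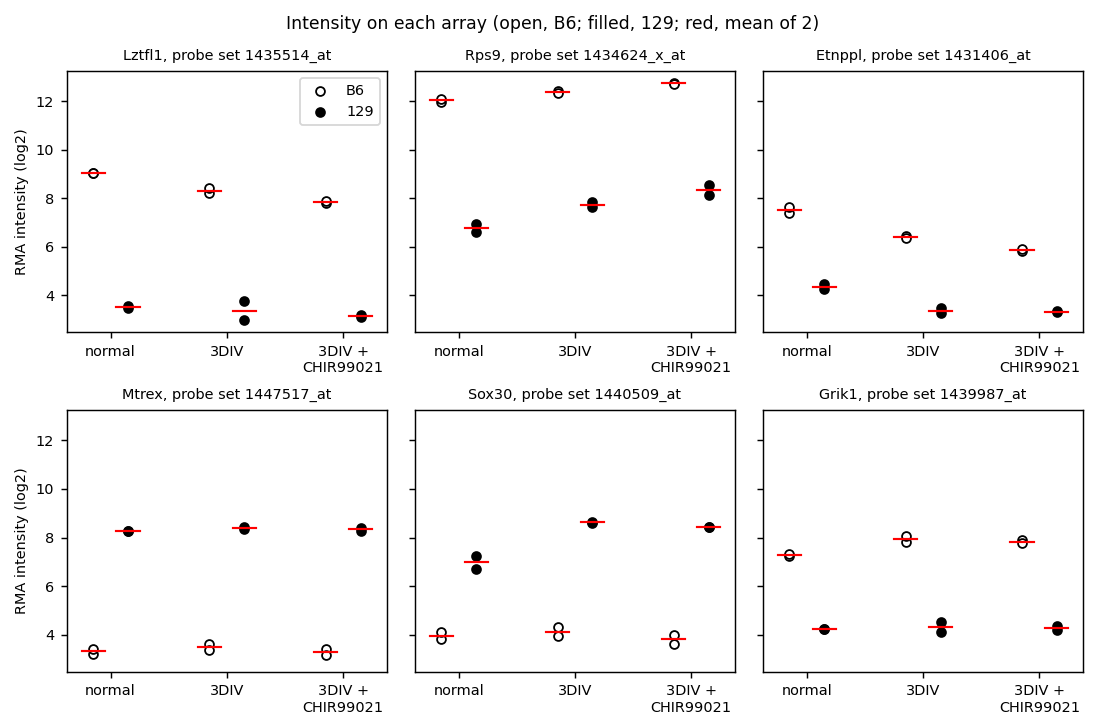
RMA intensity (log2) of each array for 6 members in normal retina, 3DIV explants with vehicle and 3DIV explants with CHIR99021, with B6 as open points, 129 as filled points and the mean of 2 arrays in red. Open and filled points stay apart in each state, B6 above 129 in Lztfl1, Rps9, Etnppl and Grik1 and below it in Mtrex and Sox30.

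Other probe sets of the same genes that were not themselves members were tested with limma. The test used the mean strain difference over the 3 states, with adjusted p over all probe sets. Each probe set was judged alone, but any past the limit became a member, so the others are those that fell short of it. In the series as a whole, 12.2% of probe sets were called lower and 16.4% higher in 129. Of the 50 members, 40 (36 genes) had another probe set on the array, and 10 genes (Adat2, Gdpd3, Gm4792, Klhl30, Shisa4, Slc25a37, Slc5a8, Sox30, Tmem87a and Zfp874a) had only the member. The other probe sets that were no members numbered 79. Their median level was at percentile 66.9 of the array and 57 lay above the array median. The shares over all probe sets are therefore not matched to them in level. Of 63 on genes lower in 129, 24 (38.1%) were called in the direction of the member, and of 16 on genes higher in 129, 5 (31.3%) were. Of 38 members with such a probe set, 21 had one called their way, 9 had one called only the opposite way and 8 had none called.

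The sizes were mostly smaller than those of the members, which the choice favours, because a probe set past the limit became a member. Of the 79, 65 differed by under 0.5 on the log2 scale, beside 94.6% of all probe sets. Sizes of 0.5 or more were thus more frequent among the 79 than on the whole array. Their median size was 0.22 beside 0.09 for all probe sets. In the direction of the member, 5 of the 79 were called with a size of at least 1. Of all probe sets, 1.30% differed by at least 1 in either direction. Only 7 genes had another probe set called the same way by at least 1: Pttg1, Etnppl, Uqcr10, Slx1b, Pisd-ps3, Trp53bp1 and Paip1. In 4 of them, Etnppl, Trp53bp1, Pisd-ps3 and Paip1, 2 probe sets were members, so that the agreement of these is part of the choice. In Etnppl and Pttg1, every probe set on the array differed by at least 1 the same way. In the other 29 genes, the 64 other probe sets ran from -1.76 to 1.27 with a median size of 0.21, 55 of them under 0.5. In 21 of these genes all others were under 0.5, and in 23 genes at least 1 probe set under 0.5 lay above the array median in level.

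**Figure D3:**
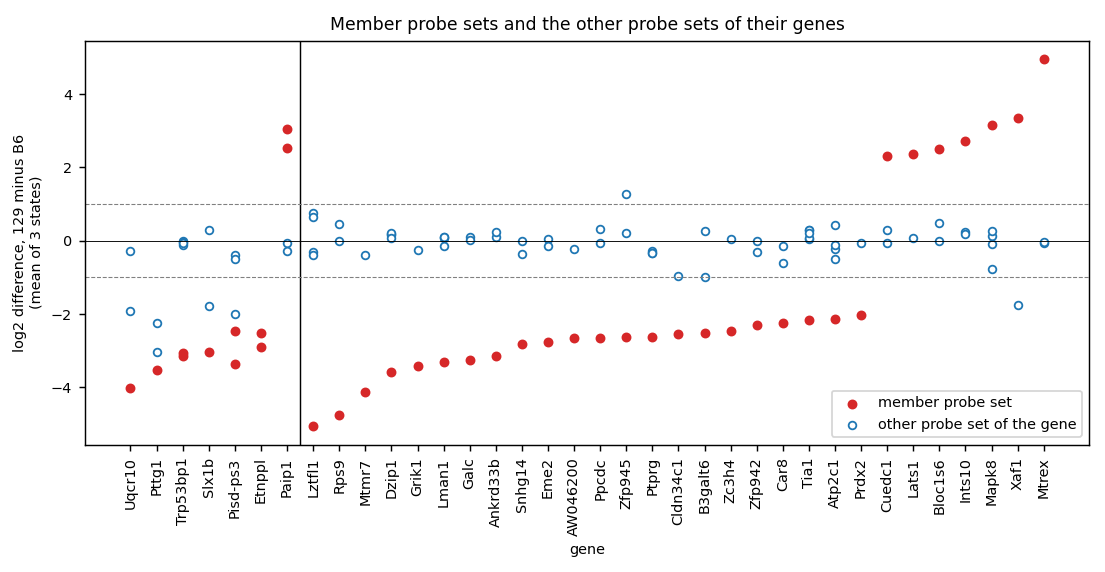
Log2 strain difference, 129 minus B6, as the mean of 3 states, for member probe sets (filled) and the other probe sets (open) of the 36 genes with more than 1 probe set. The 7 genes left of the upright line have another probe set the same way by at least 1, whereas in the 29 genes to the right most open points lie near 0 and those of Xaf1 and Zfp945 include one on the opposite side.

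Etnppl, an ethanolamine-phosphate phospho-lyase found in astrocytes, was a member with both of its probe sets. Probe set 1431406_at read 166 and 197 in normal B6 retinas against 19.2 and 22.3 in 129, 86.6 and 81.5 against 11.3 and 9.60 in vehicle explants, and 57.1 and 60.3 against 9.85 and 10.3 with CHIR99021. Probe set 1452975_at read 576 and 585 against 138 and 139 in normal retinas, 353 and 320 against 38.3 and 46.0 in vehicle explants, and 226 and 253 against 39.2 and 47.1 with CHIR99021. B6 was above 129 at both probe sets in every state, with mean differences of -2.90 and -2.52.

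Pttg1 was lower in 129 at all 3 of its probe sets. The member, 1424105_a_at, read 1002 and 805 in normal B6 retinas against 33.4 and 22.2 in 129, 1271 and 1250 against 127 and 94.9 in vehicle explants, and 832 and 965 against 253 and 194 with CHIR99021. The 2 probe sets that were not members differed by -3.05 ± 0.07 (SE; adjusted p = 3.2e-10) at 1438390_s_at and by -2.23 ± 0.08 (adjusted p = 8.8e-09) at 1419620_at. At 1438390_s_at the normal retinas read 3531 and 3004 in B6 and 137 and 139 in 129, the vehicle explants 3766 and 3610 against 576 and 478, and the CHIR99021 explants 2986 and 3230 against 1005 and 830. The B6 arrays stayed at about 1 level while the 129 arrays stood higher in each explant state than in normal retina.

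The strain difference of Pttg1 was narrower in the cultures, as a description -5.04, -3.52 and -2.02 at the member. The other probe sets read the same gene on the same arrays and missed the limit only with CHIR99021. At these, the change from normal retina to vehicle explant was larger in 129 than in B6. It was larger by 1.75 (adjusted p = 0.00062) at 1438390_s_at and by 0.87 (adjusted p = 0.042) at 1419620_at. The change with CHIR99021 was larger by 1.05 (adjusted p = 0.017) and 1.21 (adjusted p = 0.015). The first of these calls held when any 1 array was left out, that of 1419620_at in culture was lost in 8 of 12 such fits and with the replicate block, and both CHIR99021 calls were lost in 5. In 129, 1438390_s_at rose by 1.93 ± 0.12 in culture (adjusted p = 5.4e-07) and by a further 0.80 ± 0.12 with CHIR99021 (adjusted p = 0.0019). In B6 the changes of 1438390_s_at were 0.18 (adjusted p = 0.30) and -0.25 (adjusted p = 0.19). At 1419620_at, 129 rose by 0.68 ± 0.14 in culture (adjusted p = 0.0028) and by 0.53 ± 0.14 with CHIR99021 (adjusted p = 0.029), while B6 changed by -0.18 ± 0.14 (adjusted p = 0.35) and by -0.69 ± 0.14 (adjusted p = 0.0058), from 175 and 173 to 95.6 and 123. So at this probe set the narrowing with CHIR99021 held both a rise in 129 and a fall in B6. Pttg1 was on the list of mitosis and DNA replication. As the mean of the 3 states, most genes of that list were called higher in 129, and Pttg1 lay on the other side. The summed intensity of the list was lower in 129 in normal retinas and vehicle explants, and higher with CHIR99021. This sum includes Pttg1 itself at 1438390_s_at, which in vehicle explants read 3766 and 3610 in B6 against 576 and 478 in 129. It is therefore no separate background for Pttg1, and the sum without Pttg1 was not computed.

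The promoters of both genes with a difference at every probe set are shown because, among the 36 genes with several probe sets, only in these did every one carry it. The windows are the 250 bases before the first listed start in RefSeq for GRCm38.p6, a B6 reference, 5′ to 3′ on the strand of the gene, and capitals mark CG pairs. Etnppl lies on the plus strand with its window at chr3:130617198-130617447, and Pttg1 on the minus strand with its window at chr11:43425982-43426231.
Etnppl: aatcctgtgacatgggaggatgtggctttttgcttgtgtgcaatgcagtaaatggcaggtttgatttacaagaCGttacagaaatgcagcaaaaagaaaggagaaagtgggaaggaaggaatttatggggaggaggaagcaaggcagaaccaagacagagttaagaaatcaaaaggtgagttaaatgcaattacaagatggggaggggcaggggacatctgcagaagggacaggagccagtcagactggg
Pttg1: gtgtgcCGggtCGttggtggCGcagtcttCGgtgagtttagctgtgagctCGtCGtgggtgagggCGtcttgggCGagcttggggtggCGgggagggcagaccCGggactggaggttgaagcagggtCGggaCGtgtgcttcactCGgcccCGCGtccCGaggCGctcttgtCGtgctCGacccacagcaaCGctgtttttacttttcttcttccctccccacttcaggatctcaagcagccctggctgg

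The Etnppl window held 1 CG pair, where 7.87% of 32851 promoters held fewer, and the Pttg1 window held 20, where 82.1% held fewer, against a median of 6. Neither window held the CCAAT box (CCAAT or ATTGG), the GC box (GGGCGG or CCGCCC) or the TATA box (TATAAA or TTTATA), which 33.9%, 32.7% and 12.4% of these promoters held on either strand. The sequence is that of the reference, and the bases of 129 in these windows were not analysed here.

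The remaining genes with a difference at more than 1 probe set were mixed. Uqcr10 read between 298 and 331 in B6 and between 16.5 and 22.7 in 129 at the member 1434340_at, with differences of -4.02, -4.03 and -3.96. Its probe set 1434341_x_at differed by -1.91 ± 0.12 (adjusted p = 6.5e-07), whereas 1424364_a_at read between 1718 and 2291 in B6 and between 1372 and 1933 in 129 and differed by -0.29 ± 0.05 (adjusted p = 0.0015). Thus 2 of the 3 probe sets of Uqcr10 differed by over 1 and the other did not.

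Slx1b, the nuclease subunit that cuts branched DNA, had the member 1455219_at between 138 and 222 in B6 and between 15.3 and 26.3 in 129. Another probe set of Slx1b, 1460095_at, differed by -1.78 ± 0.08 (adjusted p = 7.2e-08), and 1454082_a_at by 0.29 ± 0.07 the other way (adjusted p = 0.012). Pisd-ps3, a transcribed pseudogene related to phosphatidylserine decarboxylase, had 2 members, 1453144_at with 1174 and 1219 in normal B6 retinas against 150 and 162 in 129, and 1429452_x_at with 1171 and 1155 against 274 and 273. A further 3 probe sets of Pisd-ps3 differed by -1.99, -0.49 and -0.39. Because a pseudogene resembles its parent gene, these probe sets may share signal with related transcripts, and the values of Pisd-ps3 are uncertain.

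In Trp53bp1, a protein of DNA double-strand break repair, both members read between 72.0 and 132 in B6, above the array medians. In 129 they were dim, between 9.93 and 15.1. The other 4 probe sets of Trp53bp1 differed by between -0.11 and 0.01, and none was called. In Paip1, the members 1425521_at and 1441955_s_at read between 49.8 and 128 in B6 and between 397 and 836 in 129. The other 2 probe sets of Paip1 differed by -0.06 ± 0.04 (adjusted p = 0.27) and by -0.28 ± 0.07, slightly lower in 129 (adjusted p = 0.011). In both genes, 2 probe sets carried a difference that the others lacked.

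Lztfl1 and Rps9, with the largest differences among the members lower in 129, had no second probe set with a difference of that kind. The 4 other probe sets of Lztfl1 differed by 0.75, 0.65, -0.30 and -0.39, all called, 2 in each direction. For Rps9, 1433689_s_at read between 5040 and 8149 in B6 and between 4866 and 8652 in 129 and differed by -0.01 ± 0.04 (adjusted p = 0.93), and 1426958_at was higher in 129 by 0.45 ± 0.07. Ribosomal protein genes have many processed copies, and the member of Rps9 carries the suffix of probes that may cross-hybridise, so its values are uncertain. Mtrex had 2 other probe sets, at -0.05 and -0.03, Mapk8 had 4 between -0.77 and 0.26, and Grik1 had 1, at -0.26 ± 0.09 (adjusted p = 0.042). Dzip1, Lman1, Tia1, Galc and Ankrd33b likewise had only probe sets between -0.15 and 0.30 beside the member. In Dzip1, Lman1, Tia1 and Ankrd33b at least 1 of these lay above the array median in level. Those of Galc read only 22.5 and 7.92 on average, and the Mtrex probe set at -0.03 read 7.25. So close to the floor, a strain difference could be missed.

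Slightly larger differences beside the member were found in B3galt6, a galactosyltransferase of proteoglycan synthesis, at -0.98, and in Cldn34c1, at -0.97, both in the direction of the member. These probe sets read 47.1 and 14.2 on average. A brighter probe set of B3galt6, 1421155_at, read 175 on average and was higher in 129 by 0.25 ± 0.06 (adjusted p = 0.011). In 2 genes, Xaf1 and Zfp945, a probe set differed by at least 1 in the opposite direction.

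Probe set 1443621_at of Xaf1, the member, read 39.9 and 24.2 in normal B6 retinas against 118 and 134 in 129, 67.8 and 70.1 against 1305 and 1219 in vehicle explants, and 77.5 and 78.8 against 1110 and 1088 with CHIR99021. It was higher in 129 in every state, by 2.02, 4.19 and 3.81. Probe set 1443698_at of Xaf1 read 149 and 122 in normal B6 retinas against 45.6 and 50.4 in 129, 853 and 1014 against 308 and 228 in vehicle explants, and 962 and 1187 against 284 and 260 with CHIR99021. It was lower in 129 in every state, by -1.76 ± 0.09 on average (adjusted p = 2.0e-07), so that the strain with more Xaf1 signal depended on the probe set. Both probe sets rose in culture, by 2.24 ± 0.12 and 2.63 ± 0.11 as means of the strains.

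As a description, the change of the Xaf1 member in culture was 3.32 in 129 and 1.15 in B6. At 1443698_at the changes were 2.47 ± 0.16 in 129 and 2.79 ± 0.16 in B6 (difference -0.32, adjusted p = 0.51). In Zfp945, a zinc finger gene, the member 1437128_a_at read between 150 and 302 in B6 and between 17.5 and 55.9 in 129, whereas 1437127_at read between 77.3 and 132 in B6 and between 218 and 305 in 129 and was higher in 129 by 1.27 ± 0.07 (adjusted p = 2.0e-07). The remaining probe set, 1441792_at, differed by 0.20 ± 0.07 (adjusted p = 0.065).

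**Figure D4:**
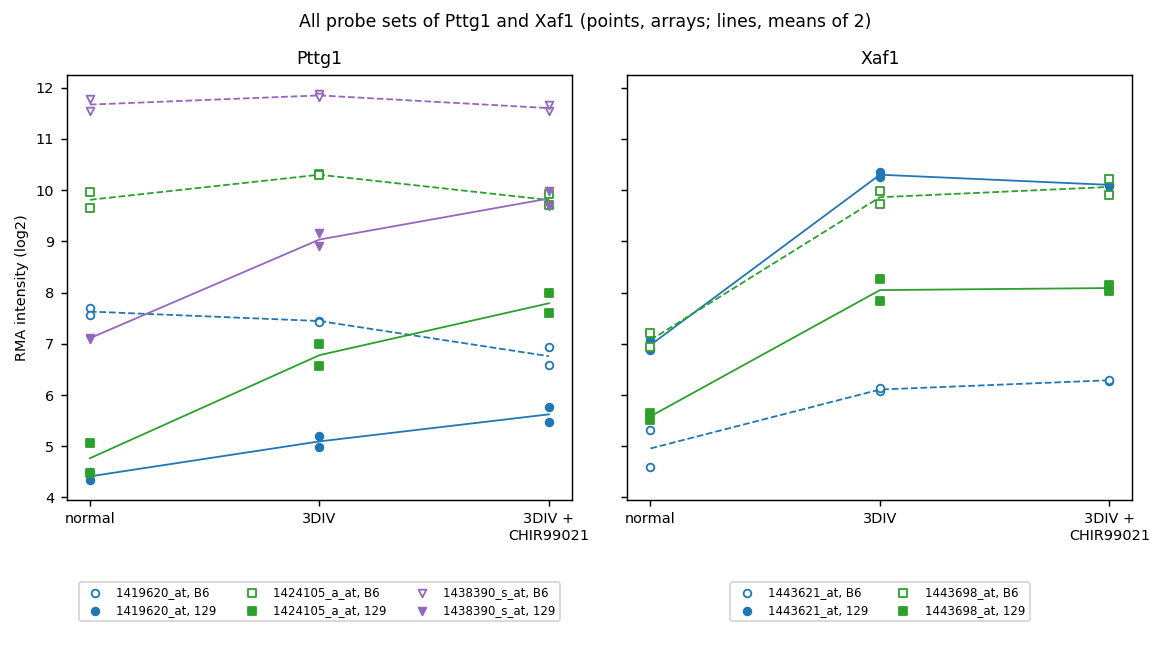
RMA intensity (log2) at all probe sets of Pttg1 (left) and Xaf1 (right) in the 3 states, with points for arrays, lines through means of 2, and open points with dashed lines for B6. The Pttg1 lines of B6 lie above those of 129 at all 3 probe sets and come closer in the explants, while in Xaf1 the 129 line is above B6 at 1443621_at and below it at 1443698_at and all lines rise in culture.

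Changes with culture, averaged over both strains, are independent of the strain difference used for the choice. From normal retina to vehicle explants, 16 members (32%) rose and 15 (30%) fell, beside 19.2% and 22.6% of all probe sets, and 19 were not called. The median change was 0.04, beside -0.03 for all probe sets. In 6 members the change was at least 1 in size. Xaf1 rose most, followed by Pttg1 with 1.25 ± 0.15 (adjusted p = 3.9e-05), Zfp945 with 1.12 ± 0.11 (adjusted p = 1.0e-05), Sox30 with 0.91 ± 0.13 (adjusted p = 0.00019), Slc25a37 with 0.82 ± 0.09 (adjusted p = 2.1e-05) and Adat2 with 0.69 ± 0.14 (adjusted p = 0.0024).

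The values of Sox30 in 129 were 106 and 152 in normal retinas, 392 and 405 in vehicle explants and 343 and 348 with CHIR99021, and in B6 they stayed between 12.5 and 19.8. The largest fall was that of Etnppl, with -1.26 ± 0.08 at 1452975_at (adjusted p = 3.2e-07) and -1.05 ± 0.08 at 1431406_at (adjusted p = 1.2e-06), and both strains read lower in explants at both probe sets. Ankrd33b fell by 1.12 ± 0.11 (adjusted p = 8.9e-06), from 2035 and 2564 to 1033 and 1013 in B6 and from 256 and 244 to 122 and 115 in 129.

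The changes of Ankrd33b were -1.16 ± 0.15 in B6 and -1.08 ± 0.15 in 129, and its strain differences were -3.19, -3.11 and -3.11. Cuedc1, a protein with a ubiquitin-binding CUE domain, fell by 0.86 ± 0.06 (adjusted p = 8.9e-07), AW046200 by 0.78 ± 0.08 (adjusted p = 1.1e-05) and Klhl30, a kelch-like protein, by 0.64 ± 0.09 (adjusted p = 0.00023). As whole-tissue values beside these changes, the 20 rod markers measured all fell in explants (median -1.34) and 14 of 17 microglial markers rose (median 1.24). Of 15 markers of pigmented epithelium, 13 fell (median -0.92). Their summed intensity was 11130 and 13368 in normal B6 retinas and 5750 and 12304 in normal 129 retinas. In the explants it lay between 877 and 1206. The part of a changed cell mixture in the changes of the members was not tested.

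With CHIR99021, again averaged over both strains, 5 members rose (10%) and 9 fell (18%), beside 12.8% of all probe sets rising and 12.8% falling. In this mean 36 were not called and none changed by 1 or more. Single strains could change more. As a description, in 129 alone the change was -1.39 for Gdpd3 and 1.01 for the member of Pttg1. Slc5a8 changed by -0.86 in B6 and by 0.87 in 129. The number that fell was 5 without replicate 1 of the vehicle explants of B6 and 5 without replicate 1 of the CHIR99021 explants of 129. The rises were those of Galc with 0.69 ± 0.14 (adjusted p = 0.0042), Rps9 with 0.48 ± 0.10 (adjusted p = 0.0049), both members of Paip1 with 0.43 ± 0.08 (adjusted p = 0.0023) and 0.39 ± 0.07 (adjusted p = 0.0015), and Klhl30 with 0.36 ± 0.09 (adjusted p = 0.017), a call lost in 4 of 12 fits without 1 array. Gdpd3 fell by 0.85 ± 0.15 (adjusted p = 0.0018), with 1179 and 903 in vehicle explants of 129 and 396 and 393 with CHIR99021, and 49.4 and 54.3 against 53.2 and 33.1 in B6. Ankrd33b fell by 0.40 ± 0.11 (adjusted p = 0.020), a call lost in 5 of 12 fits without 1 array, and Ppcdc, an enzyme of coenzyme A synthesis, by 0.37 ± 0.08 (adjusted p = 0.0055). Gm4792 fell by 0.35 ± 0.08 (adjusted p = 0.011).

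**Figure D5:**
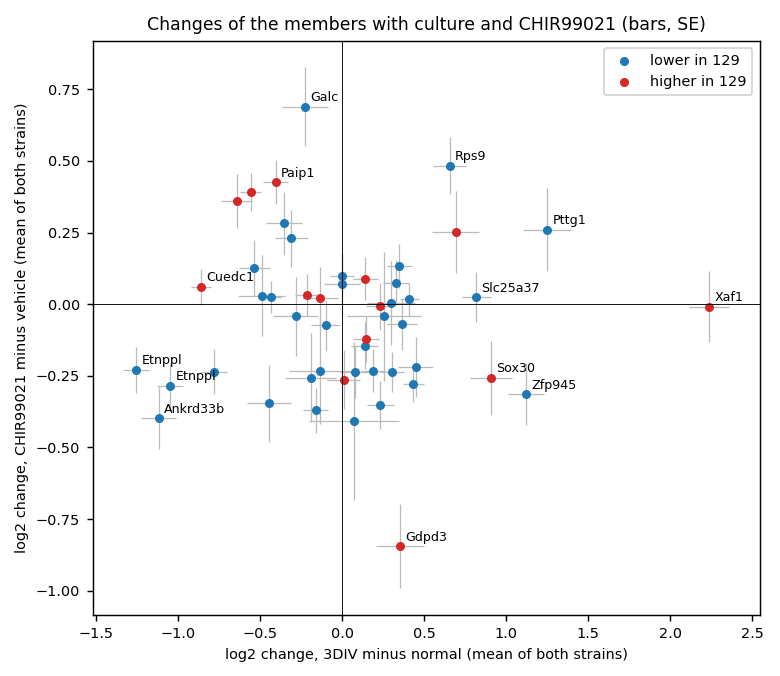
Log2 change of each member in 3DIV explants against normal retina (horizontal) and with CHIR99021 against vehicle (vertical), both as means of the strains with SE, blue for members lower in 129 and red for those higher in 129. Xaf1 at 2.24 and Etnppl at -1.26 are the ends of the horizontal axis, and Galc at 0.69 and Gdpd3 at -0.85 those of the vertical axis.

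An unequal response of the strains was called for 10 members (20%) in culture, beside 2.58% of all probe sets, and for 6 (12%) with CHIR99021, beside 1.35%. These counts use the strain differences by which the members were chosen and nothing is read from them.

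Other properties of the members were counted beside those of all probe sets with 1 symbol. Suffixes that mark probes shared by transcripts or prone to cross-hybridise were about as frequent, 6% against 5.83% for x_at, 4% against 5.24% for s_at and 12% against 11.7% for a_at. Probe sets of protein-coding genes made up 90% against 93.7%. Probe sets designed from a curated RefSeq mRNA accession made up 6% (3 of 50) against 16.9%. Of the 46 genes, 10 (21.7%) had 1 probe set against 50.5% of all genes, and a gene with more probe sets had more chances to enter.

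Member genes lay on most chromosomes, with 5 each on 7 and 11 and 4 each on 8, 10 and 14. In the order of genes along a chromosome, Slx1b and Gdpd3 on chromosome 7 had 2 measured genes between them and opposite signs, Zfp942 and Zfp945 on chromosome 17 had 6 between them and were both lower in 129, and Pttg1 and Sox30 on chromosome 11 had 15 between them and opposite signs. The 3 measured genes on each side of every member gene gave 266 genes with 538 probe sets. Of these, 39.4% were called between strains against 28.6% of all probe sets, and 15 (2.79%) differed by at least 1 against 1.30%. Those beside Paip1 included all 3 probe sets of 4833420G17Rik lower in 129, by -1.82, -1.33 and -1.17, and Tmem267 by -1.98 ± 0.12 (adjusted p = 7.4e-07), where the members of Paip1 itself were higher in 129. Beside Lztfl1, Fyco1, an adaptor that moves autophagosomes, differed by -1.21 ± 0.04, and beside Zfp945, both probe sets of Zfp40 by -1.11 and -1.07.

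At the limit itself, the smallest differences inside were those of Slc25a37 (2.001), Prdx2 (2.003) and Cuedc1 (2.01), and the largest outside those of Chrdl1 (1.88), Pisd-ps3 at 1453145_at (1.84) and Gm10033 (1.84), so the limit does not mark a break. Prdx2 read between 730 and 993 in B6 and between 174 and 255 in 129, and its other probe set differed by -0.05. A further 23 probe sets passed the same limit but had no gene symbol (22) or several (1), of which 19 were lower and 4 higher in 129, with smallest sizes between 2.03 and 4.60. At least 1 state with a difference of 2 was found in 200 probe sets with 1 symbol, 111 in normal retinas, 106 in vehicle explants and 119 with CHIR99021, and none had 3 such differences of unlike sign.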

How the data were processed

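Total RNA of normal retinas and of explants was labelled and hybridized to Affymetrix Mouse Genome 430 2.0 arrays, 12 arrays in 6 groups taken from the labels. Per the labels the authors used RMA (no version stated), and the intensities they deposited are on a linear scale and were converted to log2. Probe sets were named from the platform annotation (1 symbol for 34945, several for 932, none for 9160), and 64 control probe sets were left out. The members and lists were chosen with earlier results of these data known. Named genes were the 12 members of each sign with the largest smallest difference, genes with 2 members, the largest changes among called members, members on lists, those at the limit, and other probe sets of these genes. Other members and flanking genes were named after their values were seen. No filter on level was applied.

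Group means were fitted to all 45037 probe sets with limma 3.58.1 in R 4.3.3 (eBayes; 4.69 prior and 6 residual degrees of freedom), with Benjamini-Hochberg adjustment and a limit of 0.05, after these steps had been tested on simulated data. The number of arrays limits the precision. Of 46 genes, 37 had a promoter in the RefSeq table. Gene order came from RefSeq, for names and neighbours only. Whether replicate numbers pair the samples is not stated, and the main fit was not paired. Replicate deviations correlated between -0.11 and 0.04 across pairs of groups, which cannot settle it. Alternatives were another scaling, a trended and robust eBayes, other limits, a replicate block and each array left out.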

Additional observations from a re-analysis of the deposited data

Results flagged for a closer look

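In 10 members the change from normal retina to vehicle explant differed between the strains by the interaction term of limma at an adjusted limit of 0.05, and in 6 the change with CHIR99021 did. The members were chosen on their strain differences in the same states, so these values are a description. As the change in 129 minus that in B6 (log2), culture gave 2.17 for Xaf1, 1.52 for Pttg1, 1.48 for Sox30, 0.87 and 0.62 for the 2 members of Paip1, 0.69 for Zfp942, 0.55 for Shisa4, -0.88 for Pisd-ps3 at 1453144_at, -0.91 for Gm4792 and -0.93 for Etnppl at 1452975_at. CHIR99021 gave 1.73 for Slc5a8, a sodium-coupled transporter of monocarboxylates, 1.51 for Pttg1, 1.05 for Zfp874a, -0.67 and -1.05 for the members of Paip1 and -0.72 for Mapk8. The call of Xaf1 held under every alternative run, and each of the other 15 was lost in at least 1 of them. For Shisa4 it was lost in 14 of 15.

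Slc5a8 read 139 and 186 in vehicle explants of B6 and 87.2 and 89.5 with CHIR99021, against 9.53 and 10.3 and then 22.2 and 14.8 in 129, so its strain difference was -4.02 with vehicle and -2.29 with CHIR99021. The 2 members of Paip1 changed in B6 by -0.84 ± 0.11 and -0.87 ± 0.09 in culture and by 0.95 ± 0.11 and 0.72 ± 0.09 with CHIR99021, and in 129 by between -0.25 and 0.06. The non-member probe sets of Paip1 did not show this pattern. Probe set 1451740_at changed in culture by -0.34 ± 0.06 in B6 and -0.23 ± 0.06 in 129, both called, and with CHIR99021 by -0.01 and -0.06. Probe set 1456852_at changed in culture by -0.35 ± 0.12 in B6, which was called, and -0.29 ± 0.12 in 129, and its changes with CHIR99021 were under 0.05 in size.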

How the results depend on the processing

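The number of members was 48 with cyclic loess and 35 when every difference between single arrays had to reach the limit. It was 93 at a limit of 1.5, 13 at a limit of 3 and 26 among probe sets above the median level, all by construction, and between 43 and 50 with 1 array left out. The 21 members with a non-member probe set called their way, a count added after seeing the data, were 23 with cyclic loess, 14 when only others above the median level were counted, and between 18 and 21 with 1 array left out. With other members counted too they were 27, or 17 above the median level, and between 24 and 27 with 1 array left out, and those with a difference of at least 1 were 11, or 7 above the median level, and between 11 and 13. In 6 of the 27, both members of Etnppl, Trp53bp1 and Paip1, the choice itself fixes the agreement. With 1 array left out, 14 to 17 members rose and 11 to 15 fell in explants, and 4 to 6 rose and 5 to 10 fell with CHIR99021. With the replicate block, 15 members rose in explants and the other counts were unchanged. An arm with 1 array was assumed to vary like the other groups. Of the 45 called changes of single members, 32 kept their call under all 15 alternatives and none reversed in any of them, and 77 of the 675 fits lost the call. Of 29 further calls at interactions and other probe sets, chosen after seeing the data, 11 kept it under all. The strain differences of at least 1 at other probe sets of Uqcr10, Pisd-ps3, Slx1b, Zfp945, Pttg1 and Xaf1 were among those kept. With 2 arrays a group, a difference that was not called may still exist, and dim probe sets near the floor give smaller differences than the RNA may have.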
